A study of Mus musculus with 16 samples.

Results

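The response of mouse pancreatic islets to FK866 was read from 8 Illumina bead arrays of labelled cRNA, 4 from islets given 10 nM FK866 and 4 from control islets given 0.1% DMSO, both for 48 h. The primary islets came from wild type B6 mice, and the labels state no DMSO content for the FK866 islets. The FK866 array and the control array of each replicate number formed a pair, which gave 4 pairs. The labels do not say whether a replicate number stands for an animal, a pool or a culture, so the p-values speak for the spread among these arrays alone, part of which may be technical. A gene was compared when at least 4 of the 8 arrays detected its probe (detection p under 0.05), which held for 8904 of the 15225 genes that could be named, 7412 of them on all 8. Primary hepatocytes of the same study, at 200 nM FK866 and with the same control and duration, are used only to ask where the islet change differed, and there tissue and dose cannot be told apart.

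FK866 blocks nicotinamide phosphoribosyltransferase (NAMPT), the enzyme that joins nicotinamide to a ribose phosphate to make nicotinamide mononucleotide, from which cells make NAD. NAD carries electrons from glucose and fatty acids to the respiratory chain, and it is used up by sirtuins, by poly(ADP-ribose) polymerases and by NAD glycohydrolases. Islets hold insulin-secreting beta cells, glucagon-secreting alpha cells and other endocrine cells, together with vessels, stroma and macrophages, and beta cells release insulin when their metabolism of glucose rises.

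The arrays carried islet RNA. Values are normalized log2 signals, on which the dimmest detected probe of an array lay between 5.73 and 5.96. The insulin gene Ins1 read 15.92, 15.70, 15.67 and 15.54 on FK866 arrays 1 to 4, against 15.79, 15.73, 15.52 and 15.62 on control arrays 1 to 4. All 10 islet hormone and granule genes sought were detected on at least 4 arrays, while none of the 9 lymphocyte markers or the 3 erythroid markers on the array was. Of 12 hepatocyte markers on the array 9 were detected on no islet array, among them Apoa1 and Ahsg. Both arrays numbered 2 stood apart, with median probe signals of 18.0 with FK866 and 15.4 in the control, against 26.9 to 33.1 for the remaining islet arrays. They correlated with the rest at medians of 0.919 and 0.837, against 0.975 to 0.990, so results are also given without pair 2.

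FK866 changed 4 of 8904 genes (0.0449%) at an adjusted p of 0.05, 1 higher (0.0112%) and 3 lower (0.0337%). The epidermal growth factor receptor ligand amphiregulin, Areg, rose 3.48-fold. Cdo1, the dioxygenase that begins the breakdown of cysteine towards taurine, fell, as did the fibril-associated collagen Col16a1 and C8b, the beta chain of complement C8. At an unadjusted p under 0.05 there were 1033 genes (11.6%), 416 higher (4.67%) and 617 lower (6.93%). All 4 calls rest on the pairing and on every pair. Without the replicate number as a block limma called 0 genes (smallest adjusted p = 0.97, and 121 at an unadjusted p under 0.05). It also called 0 without any 1 of the 4 pairs (768 to 1067 unadjusted), with signals floored at 1 (976 unadjusted) and on the authors' deposited scores (665 unadjusted).

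Areg read 11.29, 10.52, 11.37 and 11.51 on FK866 arrays 1 to 4, against 9.09, 8.56, 9.76 and 10.08 on control arrays 1 to 4. Every FK866 array lay above every control array, and in both groups the array numbered 2 was the lowest. The changes in pairs 1 to 4 were 2.20, 1.96, 1.61 and 1.44, and the fitted change was 1.80 log2 (SE 0.16, 95% interval 1.44 to 2.16, adjusted p = 0.0269, limma, n = 4 pairs). Left out in turn, pairs 1 to 4 gave changes of 1.67, 1.75, 1.86 and 1.92, with adjusted p = 0.055, 0.124, 0.262 and 0.054. These fits share most of their pairs, so their closeness says little about how steady the change was. The pairs themselves ran from 1.44 to 2.20, and the call depended on having all 4 pairs. Since Areg leads the response, its promoter from RefSeq (assembly GRCm38.p6, chr5:91139349-91139648, plus strand, from 250 bases before to 50 after the start of the gene) is shown, with a cAMP response element and a TATA box in capitals:

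Areg promoter: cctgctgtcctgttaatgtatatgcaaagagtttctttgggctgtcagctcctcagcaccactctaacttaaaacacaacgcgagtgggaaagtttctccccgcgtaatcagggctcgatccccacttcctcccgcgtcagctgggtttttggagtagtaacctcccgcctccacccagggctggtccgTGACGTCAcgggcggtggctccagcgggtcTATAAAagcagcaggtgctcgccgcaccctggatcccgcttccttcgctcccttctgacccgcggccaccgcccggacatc

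The letters TGACGTCA of the cAMP response element, which CREB and ATF proteins can bind, began at base -61 from the start, and the TATA box letters TATAAA at base -31. Both motifs were chosen after the values were seen, and the search covered both strands. Of 32851 RefSeq promoters of the same 300 bases, 1.79% held TGACGTCA and 13.6% held TATAAA. Among the 24 genes of smallest p named below, 19 had a promoter entry, and Areg alone of these held TGACGTCA, while TATAAA was also in Sct and Sv2b. The promoters of Col16a1 and C8b held none of the 8 motifs searched. No match says only that these letters are absent from this window.

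Cdo1 read 5.64, 6.52, 5.55 and 5.51 on FK866 arrays 1 to 4, against 7.30, 7.93, 7.09 and 6.50 on control arrays 1 to 4. It was detected on 1 of 4 FK866 arrays and on all 4 control arrays, and FK866 array 2 reached the level of control array 4. Within each pair FK866 was lower, by changes of -1.66, -1.41, -1.54 and -0.99, and the fitted change was -1.40 (SE 0.15, adjusted p = 0.0496). Cdo1 met the detection filter through the control arrays, where it is high, so this p adds no support for the fall. Without a detection filter its adjusted p was 0.0617 (limma). The 3 FK866 readings that were not detected lay below the dimmest detected probe of their arrays, so the size of the fall is uncertain.

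Col16a1 read 7.38, 7.89, 7.31 and 7.19 on FK866 arrays 1 to 4, against 8.45, 8.99, 8.54 and 8.15 on control arrays 1 to 4. The groups did not overlap, which was so for 102 genes in the lower direction (1.15%) and 46 in the higher (0.517%). The 4 pairs differed by -1.07, -1.11, -1.23 and -0.96, for a fitted change of -1.09 (SE 0.12, adjusted p = 0.0496). Markers of fibroblasts and stellate cells, which also make collagens, had pair medians of -0.06, -0.82, -0.53 and 0.06 over the 13 tested. The summed linear signal of all 19 such markers on the array was lower with FK866 in all 4 pairs. Their part in the change of Col16a1 was not tested.

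C8b read 7.55, 8.14, 7.54 and 7.47 on FK866 arrays 1 to 4, against 8.92, 9.18, 8.64 and 8.45 on control arrays 1 to 4. Again no FK866 array reached a control array. The pairs differed by -1.37, -1.04, -1.11 and -0.99, for a fitted change of -1.12 (SE 0.13, adjusted p = 0.0496). Without pair 2 the changes of Cdo1, Col16a1 and C8b were -1.40, -1.09 and -1.15, with adjusted p = 0.14, 0.124 and 0.124, and leaving out pair 1, 3 or 4 gave adjusted p between 0.0712 and 0.266 for these genes. In bulk islets, fewer cells of a type and less RNA per cell cannot be told apart.

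**Figure D1:**
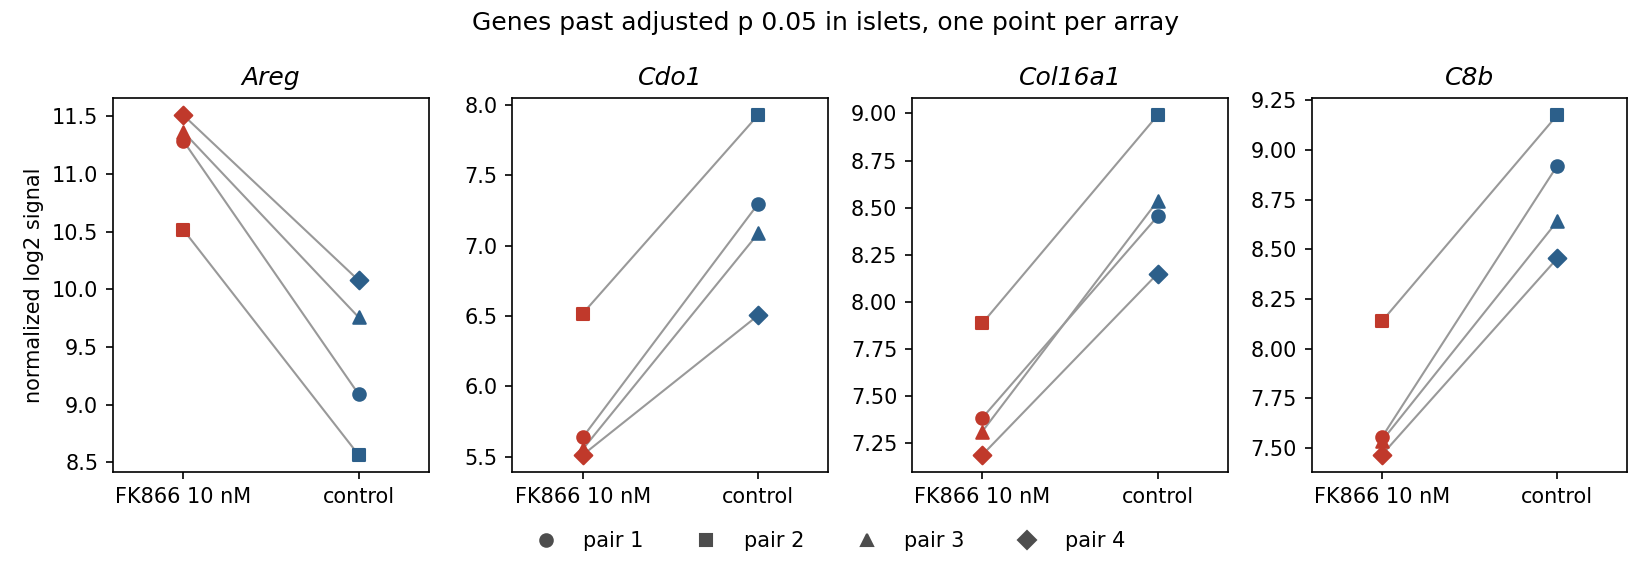
Normalized log2 signal (vertical axis) of Areg, Cdo1, Col16a1 and C8b on each of the 4 FK866 arrays (left, red) and 4 control arrays (right, blue), with a line joining the arrays of a pair. All 4 lines of Areg fall towards the control and all 4 lines of the other genes climb towards it, and only for Cdo1 do the groups meet, at 6.52 on FK866 array 2 and 6.50 on control array 4.

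Behind the 3 called decreases came 9 named genes that were lower in all 4 pairs without passing the adjusted threshold (adjusted p from 0.0621 to 0.0937). Across all genes 1065 (12%) were lower in all 4 pairs and 822 (9.23%) higher. Acot1, a cytosolic thioesterase that frees fatty acids from coenzyme A and a known target of PPAR alpha, read 5.71, 5.28, 5.77 and 5.47 with FK866, against 7.12, 6.80, 6.68 and 6.51 in controls. Its probe passed detection on 0 of 4 FK866 arrays and on every control array, so FK866 islets were on average at least 2.00-fold lower (adjusted p = 0.0621, limma). It entered the comparison only through the control arrays, where it is high, so this p adds no support for the fall. Among the genes tested, 5 were detected on no FK866 array and 0 on no control array. The difference from the control thus has only a lower bound. Corin, a membrane protease that activates atrial natriuretic peptide, likewise passed detection on 0 of 4 FK866 arrays and on every control array. That puts it on average at least 1.37-fold lower (adjusted p = 0.0764, limma), with the same limit on its p.

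Slc38a5, a glutamine transporter, read 8.03, 6.91, 8.64 and 8.29 with FK866, against 9.30, 8.88, 9.47 and 9.31 in controls, a difference of -1.27 (SE 0.19, adjusted p = 0.0937) with no overlap. Secretin, Sct, a gut peptide hormone, read 6.75, 6.66, 6.41 and 6.60 with FK866, against 7.90, 8.42, 7.20 and 7.66 in controls, a difference of -1.19 (SE 0.17, adjusted p = 0.0839). Its groups did not overlap either, and the widest gap was in pair 2 (-1.76). The synaptic vesicle glycoprotein Sv2b differed by -1.09 (SE 0.14), the AMPA glutamate receptor subunit Gria2 by -1.14 (SE 0.15) and Lin7b, a scaffold protein of polarised membranes, by -0.85 (SE 0.13). Aard differed by -1.01 (SE 0.14) and Tcp11, first known from testis, by -1.13 (SE 0.16). Of the 12 decreases with the smallest p, the called genes included, the groups did not overlap for 8, against 1.15% of all genes. These genes were chosen for a small p and 1 sign in all pairs, so the count is no further support.

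On the higher side, 11 named genes followed Areg, all higher in the 4 pairs and none past the threshold (adjusted p from 0.0839 to 0.191). Rnase1, the pancreatic ribonuclease, read 9.39, 8.84, 9.54 and 9.92 with FK866, against 8.01, 7.67, 8.93 and 8.81 in controls, a difference of 1.07 (SE 0.15, adjusted p = 0.0839). FK866 array 2 lay below control array 3, so its groups overlapped. The beta tubulin Tubb2b read 9.12, 8.59, 8.66 and 8.84 with FK866, against 8.08, 8.03, 7.55 and 7.80 in controls, a difference of 0.94 (SE 0.14, adjusted p = 0.0937). Its groups were apart on the brightest probe, but its 5 detected probes ranged in change from -0.01 to 0.94. Tnfrsf12a, the receptor for the cytokine TWEAK, read 10.31, 8.77, 10.14 and 10.04 with FK866, against 8.92, 7.21, 9.55 and 9.49 in controls, a difference of 1.02 (SE 0.20, adjusted p = 0.155).

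The difference in Tnfrsf12a was uneven, with 1.39 and 1.56 in pairs 1 and 2 and only 0.59 and 0.55 in the others. The membrane protein gene Lhfpl2 differed by 0.95 (SE 0.15), and the ectonucleotidase Entpd2, which splits extracellular ATP, by 0.74 (SE 0.13). Aldh5a1, the NAD-dependent dehydrogenase that ends the breakdown of GABA, differed by 0.74 (SE 0.13) and the cytochrome P450 gene Cyp3a13 by 0.73 (SE 0.13). The cationic amino acid transporter Slc7a3 differed by 0.60 (SE 0.13), the peroxisomal oxidase Acox2 by 0.83 (SE 0.18) and Nope, of the immunoglobulin superfamily, by 0.67 (SE 0.14). Eya3, a phosphatase and transcription cofactor, differed by 0.63 (SE 0.13) on its brightest probe and by -0.09 on its other detected one. Of these 12 increases, Areg included, the groups did not overlap for 4, against 0.517% of all genes. They were chosen in the same way as the decreases.

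**Figure D2:**
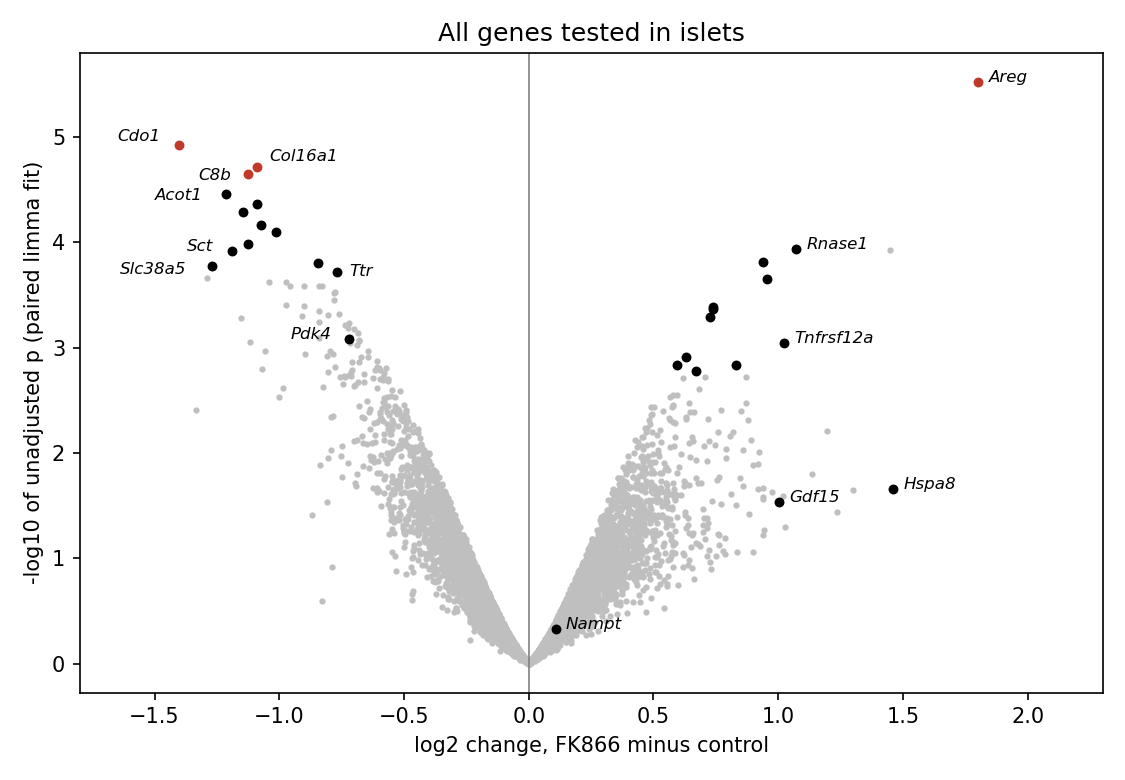
Every tested gene by its log2 change, FK866 minus control (horizontal axis), and the negative log10 of its unadjusted p in the paired fit (vertical axis). Red points are the 4 genes past adjusted p 0.05 and black points some of the other named genes, and Hspa8, with a change of 1.46, lies far lower than Areg with 1.80.

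NAD genes come first among the lists, as NAMPT is what FK866 inhibits. Nampt read 7.996, 8.65, 8.31 and 8.20 with FK866, against 8.11, 8.15, 8.30 and 8.17 in controls, a difference of 0.11 (SE 0.14, 95% interval -0.22 to 0.44). FK866 array 2 was the high reading, and the other arrays of both groups overlapped. Of 16 genes of NAD synthesis and salvage on the array 6 were tested, 3 higher and 3 lower with a median of 0.03, against a median of -0.00338 and 49.4% higher over all genes. With 1 pair left out the list median lay between -0.07 and 0.07. The list medians below are read beside this: of 32 lists, 14 had a median that turned sign when 1 pair was left out. By limma 0 of the 6 genes of NAD synthesis and salvage passed the adjusted threshold and 0 had an unadjusted p under 0.05. Naprt1, the first enzyme of the nicotinic acid route, came nearest at -0.49 (SE 0.22). The enzymes that complete NAD from its mononucleotide stood at 0.25 (SE 0.16) for Nmnat2 and -0.01 (SE 0.18) for Nmnat3. Nmnat1 was detected on 0 of 8 arrays and Slc12a8, a transporter reported to carry nicotinamide mononucleotide in mice, on 1, so neither was tested.

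Enzymes that use NAD gave no more. Of 11 tested, 6 were higher and 5 lower with a median of 0.00032 (-0.05 to 0.03 with 1 pair left out). Limma called 0, with 1 at an unadjusted p under 0.05 (11.6% over all genes). That gene was Sirt3, the main deacetylase of mitochondria, lower in all pairs at -0.29, -0.70, -0.15 and -0.30 (fitted -0.36, SE 0.14, adjusted p = 0.386). Sirt1, the nuclear deacetylase, differed by 0.33 (SE 0.26), with 1.39 in pair 2 against 0.33, -0.07 and -0.33 in pairs 1, 3 and 4. Parp1, which spends NAD at DNA breaks, differed by 0.00 (SE 0.12, 95% interval -0.28 to 0.28).

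Among hormone RNAs Ins1 differed by 0.04 (SE 0.12, 95% interval -0.24 to 0.33) and Ins2 by -0.09 (SE 0.12, -0.37 to 0.18). Both probes were among the 19 brightest on every islet array, with deposited signals of up to 64041 for Ins1, where the brightest probe of any islet array reached 65157. Whether signals this high still follow the amount of RNA was not tested, so a change in these hormones could be missed. The delta cell hormone Sst differed by -0.04 (SE 0.12) and the pancreatic polypeptide gene Ppy by -0.07 (SE 0.12). The glucagon gene Gcg differed by -0.73 in pair 2 and by 0.00, 0.14 and -0.02 in the other pairs. Deposited signals reached 44409 for Sst, 53476 for Ppy and 58328 for Gcg, so the same limit holds for these hormones. Of the 10 hormone and granule genes 4 were higher and 6 lower (median -0.05), and limma called 0, with 0 at an unadjusted p under 0.05. The ghrelin gene Ghrl differed by 0.34 (SE 0.16), at low deposited signals of 22 to 151.

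Transthyretin, Ttr, a carrier of thyroid hormone and retinol that is abundant in alpha cells, differed by nearly the same amount in every pair. It read 14.61, 13.53, 14.46 and 14.24 with FK866, against 15.31, 14.33, 15.25 and 15.001 in controls. Its 4 pairs differed by -0.71, -0.81, -0.79 and -0.76, although the groups overlapped through the low control array 2. The fitted difference of -0.77 (SE 0.12) had an adjusted p of 0.0937. Of 9 tested markers of alpha, delta and PP cells, Ttr included, 4 were higher and 5 lower, with a median of -0.04 (0.04 without pair 2).

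Genes of beta cell identity and function leaned lower, with 15 of 19 lower and 4 higher and a median of -0.17. None passed the adjusted threshold in limma, 2 had an unadjusted p under 0.05, both lower, and 4 were lower in all pairs. Over all genes 6.93% were lower at that unadjusted p and 12% were lower in all pairs. Pdx1, the transcription factor that maintains beta cells, read 10.88, 10.78, 10.46 and 10.44 with FK866, against 11.33, 11.13, 10.83 and 10.58 in controls, a difference of -0.33 (SE 0.12, adjusted p = 0.382). The groups overlapped, with each pair lower. The calcium-activated channel Trpm5 differed by -0.46 (SE 0.13, adjusted p = 0.28) and the transcription factor Isl1 by -0.24 (SE 0.12). The list medians of pairs 1 to 4 were -0.27, 0.12, -0.27 and -0.14, so pair 2 had the other sign, and the median was -0.23 without pair 2 and -0.10 without pair 3. The summed linear signal of the 13 beta cell markers ranged from 141000 to 165000 with FK866 and from 148000 to 177000 in controls. Bright markers such as Ins1 and Ins2 weigh most in such a sum, and the limit given above for their signals holds here too.

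In fuel metabolism each list held genes of both directions, and limma called 0 of them. Of 13 glycolysis genes 8 were higher and 5 lower (median 0.05), and without pair 2 the median was -0.01. Aldoc, an aldolase isoform, read 7.91, 8.03, 7.56 and 7.44 with FK866, against 8.55, 8.71, 8.08 and 8.41 in controls, with no overlap and a difference of -0.70 (SE 0.13, adjusted p = 0.138). The phosphofructokinase isoforms pointed apart, with Pfkp at 0.44 (SE 0.17) and Pfkm at -0.34 (SE 0.13). Of 18 genes of the TCA cycle 11 were higher (median 0.05, and 0.01 without pair 2), and of 60 subunits of oxidative phosphorylation 44 were higher (median 0.08). Over these subunits the pair medians were 0.00441, 0.31, 0.06 and -0.05, and without pair 2 the median was 0.00637. The ATP synthase subunit Atp5o differed by 0.44 (SE 0.13, adjusted p = 0.309) and was higher in all 4 pairs.

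Lipid genes were split within their lists. Pdk4, which turns off pyruvate dehydrogenase when fat is burned, read 8.52, 6.04, 8.71 and 8.38 with FK866, against 9.47, 6.93, 9.31 and 8.83 in controls, a difference of -0.72 (SE 0.14, adjusted p = 0.155). Both arrays numbered 2 were far below the others, yet their difference of -0.89 was like that of pair 1 (-0.95). Of 14 targets of PPAR alpha and genes of fatty acid oxidation 5 were higher and 9 lower (median -0.05, but 0.02 without pair 1 and 0.00208 without pair 2), and besides Acot1 and Pdk4 on the lower side the lipid droplet protein Adfp stood at 0.50 (SE 0.19). Srebf1, which switches on lipid synthesis, read 6.84, 6.71, 6.87 and 6.79 with FK866, against 7.35, 7.33, 7.76 and 7.04 in controls, with no overlap and a difference of -0.57 (SE 0.14, adjusted p = 0.253). The cholesterol synthesis enzymes Fdps and Cyp51 stood at 0.52 (SE 0.15) and 0.53 (SE 0.22) and Pmvk at -0.41 (SE 0.13), within a list of 10 higher and 7 lower (median 0.02, and -0.04 without pair 4).

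Protein folding genes leaned higher, and their pair medians were highest in pair 2. Of 32 heat shock proteins and cytosolic chaperones 24 were higher (median 0.16), with pair medians of 0.13, 0.34, 0.03 and 0.05 and a median of 0.07 without pair 2. Of 25 genes of folding and degradation in the endoplasmic reticulum 22 were higher (median 0.21), with pair medians of 0.05, 0.50, 0.12 and -0.05 and 0.06 without pair 2. In both lists limma called 0 genes, with 5 and 2 at an unadjusted p under 0.05, all higher. Over all genes 4.67% were higher at that unadjusted p. The small heat shock protein Hspb1 read 6.87, 6.63, 7.08 and 7.06 with FK866, against 6.31, 6.54, 6.12 and 6.33 in controls, a difference of 0.59 (SE 0.16, adjusted p = 0.293). Its groups did not overlap, though in pair 2 the gap was 0.09. Hspb8 differed by 0.66 (SE 0.18), the HSP90 cochaperone Ahsa1 by 0.52 (SE 0.15) and Hspa5, the chief chaperone of the endoplasmic reticulum, by 0.45 (SE 0.17), none past adjusted p 0.05.

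Targets of ATF4, the transcription factor of the integrated stress response, were higher for 30 of 39 (median 0.13), with pair medians of 0.17, 0.21, 0.02 and 0.02, and a list median of 0.04 without pair 1. Limma called 0 of them, with 5 at an unadjusted p under 0.05, all higher, against 4.67% of all genes. Gdf15, a stress-induced hormone, read 9.83, 7.99, 9.53 and 9.56 with FK866, against 9.05, 5.27, 9.33 and 9.26 in controls, a difference of 1.00 (SE 0.38, adjusted p = 0.382). It was not detected on control array 2, and its difference was 2.73 in pair 2 against 0.78, 0.20 and 0.30 in pairs 1, 3 and 4. Ddit4, an inhibitor of mTOR signalling, differed by 0.38 (SE 0.14), and Ddit3, the stress transcription factor CHOP, by 0.07 (SE 0.13). Atf3, induced by many stresses, differed by 1.09, 0.54, -0.02 and 0.22 in the 4 pairs. Slc7a3, described above, is also on this list.

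Proteasome, ribosome and antioxidant genes were also higher for most members, by small amounts. Of 26 proteasome subunits 23 were higher (median 0.13), 8 of them in all 4 pairs, and of 46 cytosolic ribosomal proteins 38 were higher (median 0.10), 11 of them in all pairs. Over all genes 9.23% were higher in all 4 pairs. Proteasome medians were 0.07, 0.25, 0.18 and 0.06 in pairs 1 to 4 and ribosomal ones 0.06, 0.18, 0.13 and 0.04, and without pair 2 the medians were 0.11 and 0.09. Limma called 0 in either list, with 2 proteasome subunits and 0 ribosomal proteins higher at an unadjusted p under 0.05, against 4.67% of all genes. The catalytic subunit Psmb6 differed by 0.34 (SE 0.13) and the ribosomal protein Rpl13a by 0.25 (SE 0.12). Of 30 antioxidant genes 24 were higher (median 0.08, and 0.05 to 0.16 with 1 pair left out), led by the heme oxygenase Hmox1 at 0.68 (SE 0.23). In pair 2 alone Hmox1 differed by 1.62. The autophagy receptor Sqstm1 differed by 0.54 (SE 0.17), and the p53 targets Trp53inp1 by 0.80 (SE 0.22), Sesn2 by 0.30 (SE 0.13) and Sesn1 by -0.37 (SE 0.13).

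Growth and signalling genes were mixed. Of 19 cell cycle genes 14 were lower (median -0.16), 7 of them in all 4 pairs and 5 with an unadjusted p under 0.05, and limma called 0. Over all genes 12% were lower in all pairs and 6.93% were lower at that unadjusted p. The centromere histone Cenpa differed by -0.45 (SE 0.13), Cdca3 by -0.56 (SE 0.17) and the G1 cyclin Ccnd1 by -0.40 (SE 0.15). Without pair 3 the list median was -0.06. Of 14 immediate early genes 9 were higher (median 0.07, but -0.00791 without pair 1), among them Klf4 at 0.53 (SE 0.14), Dusp1 at 0.39 (SE 0.12) and Jun at 0.40 (SE 0.15), while Ctgf stood at -0.52 (SE 0.15). Interferon-stimulated and antigen presentation genes were lower for 15 of 24 (median -0.08, and -0.03 without pair 4), with Oasl2 at -0.64 (SE 0.16), Gbp2 at -0.45 (SE 0.15) and Psmb9 at -0.30 (SE 0.12). On the authors' deposited scores that list median had the other sign (0.02). Of 13 circadian clock genes 6 were higher and 7 lower (median -0.12, but 0.03 without pair 3), and limma called 0. The 2 with the smallest p were both lower. Dbp, an output gene of the clock, read 11.97, 12.07, 12.30 and 12.08 with FK866, against 12.50, 12.84, 12.51 and 12.46 in controls, with no overlap and a difference of -0.47 (SE 0.14, adjusted p = 0.316). The clock repressor Nr1d1 stood at -0.81 (SE 0.25).

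Over the 34 lists, 555 tested genes were members, and limma called 0 of them after adjustment, while 68 (12.3%) had an unadjusted p under 0.05, against 11.6% over all genes. The plot of list medians by pair shows where the pairs part.

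**Figure D3:**
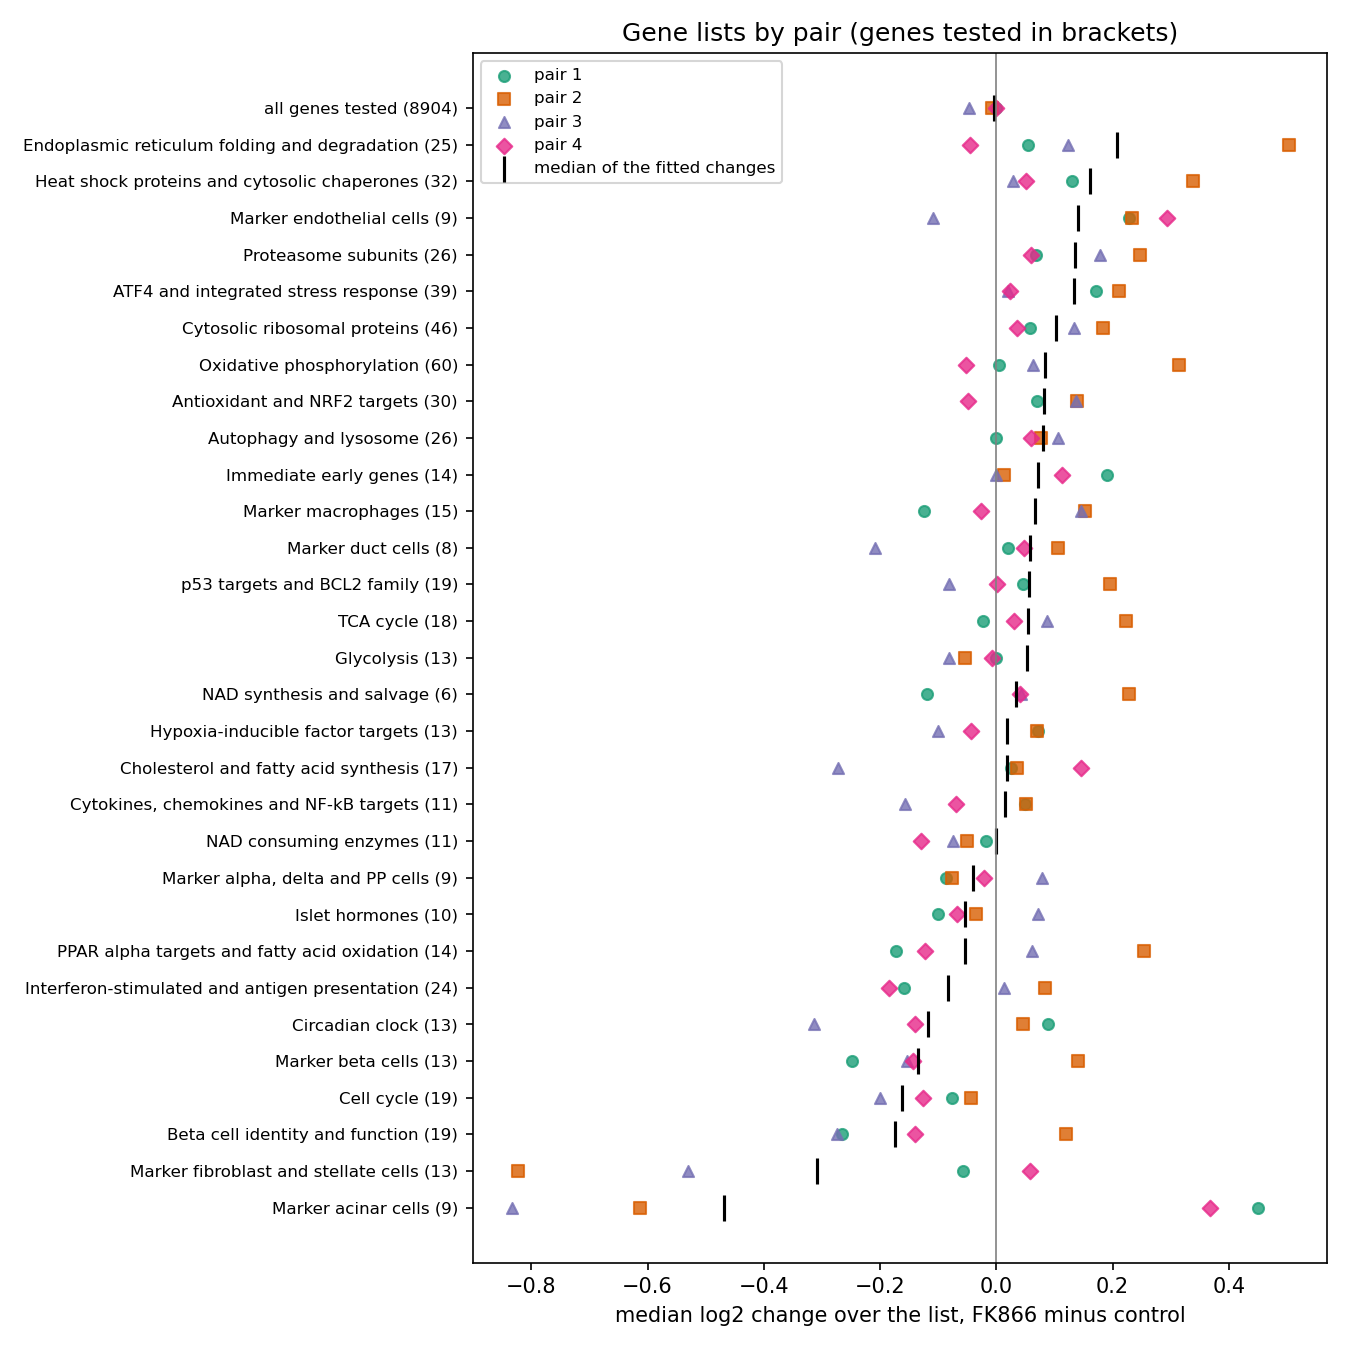
Median log2 change, FK866 minus control, over the tested genes of each list with at least 5 of them (horizontal axis), in pairs 1 to 4 (coloured marks) and in the paired fit (black bars), with all 8904 genes at the top. Pair 2 holds the highest median for folding and respiratory chain lists, and acinar markers run from -0.83 in pair 3 to 0.45 in pair 1.

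Markers of other cells in the islet preparation differed between pairs. Fibroblast and stellate markers were lower for 11 of 13 (median -0.31), and the median was -0.54 without pair 4. At an unadjusted p under 0.05 in limma 6 of them were lower, against 6.93% of all genes. The summed linear signal of all 19 fibroblast and stellate markers on the array, undetected ones included, was lower with FK866 in every pair. It was 6420, 10400, 6420 and 9060 on FK866 arrays 1 to 4, against 9640, 13000, 9540 and 10300 on control arrays 1 to 4. The smooth muscle actin Acta2 differed by -0.55 (SE 0.15, adjusted p = 0.269), but its 4 probes ranged from -0.55 to -0.02. The collagen Col5a1 differed by -0.84 (SE 0.26), Timp1, an inhibitor of matrix proteases, by -0.61 (SE 0.21) and the matrix protein Mgp by -0.49 (SE 0.16). Endothelial markers were higher for 7 of 9 (median 0.14), and the vessel diaphragm gene Plvap read 10.05, 9.96, 10.12 and 10.57 with FK866, against 9.73, 9.46, 9.71 and 9.94 in controls, with no overlap and a difference of 0.46 (SE 0.13, adjusted p = 0.275). Emcn, another endothelial gene, stood at 0.33 (SE 0.13). The medians of the 9 tested endothelial markers in pairs 1 to 4 were 0.23, 0.23, -0.11 and 0.29, so pair 3 had the other sign. The summed signal of all 17 endothelial markers on the array, undetected ones included, was higher with FK866 in every pair, least so in pair 2. It was 7440, 11300, 6460 and 8720 on FK866 arrays 1 to 4, against 6690, 11100, 6110 and 6580 on control arrays 1 to 4.

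Acinar enzymes, which come from exocrine tissue left on the islets, were split by pair, with medians of 0.45, -0.61, -0.83 and 0.37 and a fitted median of -0.47 that was 0.02 without pair 3. The summed signal of all 18 acinar markers on the array, undetected ones included, ranged from 1390 to 2290 with FK866 and from 1330 to 6280 in controls. The top value was control array 3. Of 9 tested 3 were higher and 6 lower; Rnase1 was higher in all 4 pairs, and the elastase Ela1 stood at -0.55 (SE 0.13). Duct markers had a median of 0.06 (5 of 8 higher), with Onecut2 at -0.69 (SE 0.24), and a median of -0.09 without pair 2. Macrophage markers had a median of 0.07 (9 of 15 higher), which was -0.02 without pair 2 and -0.00175 without pair 3. The summed signal of all 19 on the array ranged from 14800 to 17800 with FK866 and from 13200 to 18300 in controls. What part these cells had in the gene changes above was not tested.

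The pairs differed in how far genes moved. Pair 2 had 679 genes over 2-fold apart and pair 3 had 286, against 72 in pair 1 and 40 in pair 4. Across genes the changes of 2 pairs correlated at between 0.0133 (pairs 3 and 4) and 0.322 (pairs 1 and 4), a description over 8904 genes that share arrays. Among 1521 genes with several probes, the probes of a gene were over 1 log2 apart in their change for 0.46%, 9.86%, 7.69% and 0.131% of genes in pairs 1 to 4. So in pairs 2 and 3 different probes of a gene disagreed more often.

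**Figure D4:**
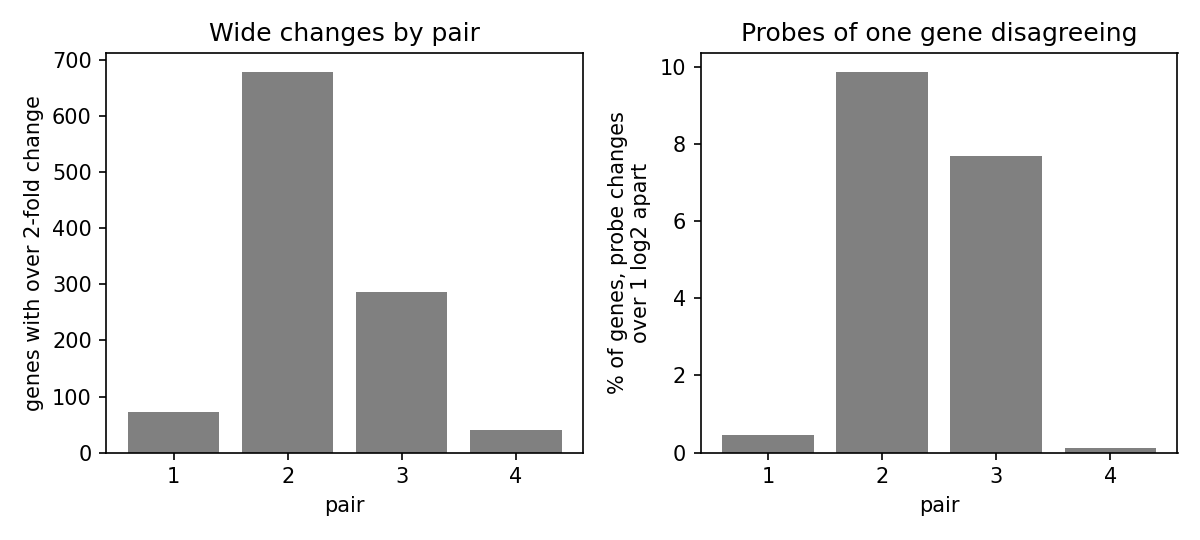
Left, the number of genes with an FK866 to control difference over 2-fold in each pair; right, the percent of 1521 genes with several probes whose probes lay over 1 log2 apart in that pair. Both bars are tall in pairs 2 and 3 and near the axis in pairs 1 and 4.

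Several named genes were wide open in pair 3, some of them named because their change ranged widely between pairs. Hspa8, the constitutive cytosolic chaperone, read 14.25, 11.77, 14.27 and 14.34 with FK866, against 14.12, 9.82, 10.70 and 14.16 in controls. Control arrays 2 and 3 were low, and the changes in pairs 1 to 4 were 0.14, 1.94, 3.57 and 0.18 (fitted 1.46, SE 0.51, adjusted p = 0.375). Eef2, the elongation factor that moves the ribosome, read 12.06, 11.0008, 12.31 and 12.31 with FK866, against 12.14, 10.32, 9.39 and 12.08 in controls, and all 3 of its probes differed by 2.91 to 3.07 in pair 3. The histone-binding Rbbp7 differed by 2.74 in pair 3 on its brightest probe and by -0.22 on the dimmest of its 4 probes. Hnrnpa2b1, an RNA-binding protein, differed by 3.04 in pair 3 on its brightest probe and by 0.07 on its other detected one. Calr and Edem1 of the endoplasmic reticulum differed by 2.51 and 2.17 in pair 3, against -0.24 and -0.08 in pair 4, the transcription regulator Tsc22d1 by 2.76 against -0.55, and Phgdh, which begins serine synthesis, by 2.23 against -0.35. For these genes the difference rested on control array 3, in part with control array 2, and its cause was not tested. The lysosomal Ctsa differed by 1.02 (SE 0.37) on its brightest probe and by -0.47 to 0.13 on its other 4 probes. On the brightest probe its difference in pair 3 was 2.38. The iron-binding Lcn2 had the other order, with 2.03 and 1.20 in pairs 1 and 2 against -0.92 in pair 3.

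The last question was where islets at 10 nM differed from hepatocytes at 200 nM. Of 7511 genes tested in both, the islet change differed from the hepatocyte change for 3 (0.0399%), with 733 at an unadjusted p under 0.05. Areg changed by 1.80 in islets and 0.04 in hepatocytes (difference 1.76, SE 0.18, adjusted p = 0.00938). Cdo1 changed by -1.40 in islets and -0.06 in hepatocytes (difference -1.34, SE 0.15, adjusted p = 0.0144), and C8b by -1.12 and 0.02 (difference -1.14, SE 0.15, adjusted p = 0.0284). For Cdo1 the limit from the detection filter in islets, given above, holds here too. Col16a1 changed by -1.09 in islets and -0.22 in hepatocytes, a difference of -0.88 (SE 0.25) that did not pass (adjusted p = 0.35). Without replicate 1 or 3 of both tissues 0 genes passed, without replicate 2 a single gene did, Ambp (1.28, named after its value was seen), and without replicate 4 Areg and Cdo1 did. Of the 24 genes of smallest p, 15 were tested in hepatocytes, and their hepatocyte changes lay between -0.23 for Acot1 and 0.25 for Lhfpl2. They were chosen by their islet p, so smaller changes in hepatocytes could follow from that choice alone.

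**Figure D5:**
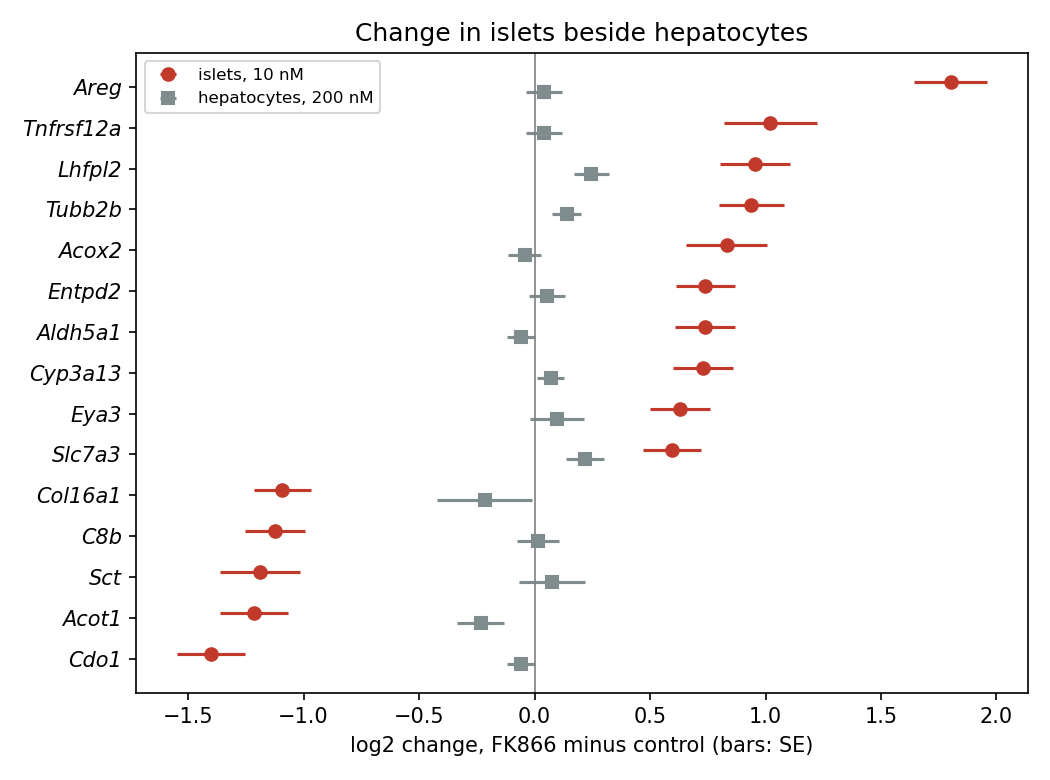
Log2 change, FK866 minus control (horizontal axis, bars are SE), of the named genes of smallest p that were tested in both tissues, with islets at 10 nM as red circles and hepatocytes at 200 nM as grey squares. Hepatocyte changes stay between -0.23 (Acot1) and 0.25 (Lhfpl2) while Areg reaches 1.80 and Cdo1 -1.40 in islets. The genes were chosen by their islet p, which alone could make the islet changes the larger.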

How the data were processed

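The islet RNA was measured on 8 arrays and hepatocyte RNA on 8. The deposited intensity of each probe is linear, holds negative values and, by its values, was background subtracted but not scaled across arrays. Per the file headers, a detection p-value follows each signal in the next column. The authors also deposited a normalized table with a score per gene symbol, which by its values is the log10 signal of a gene, floored at 1, centred and scaled in each array. The design had assumed expression values there, so the scores served for names and as an alternative only. The scanner software, the array's annotation and the tool behind the scores were not given in the sources used here.

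No file pairs probes with genes, so probes were named by matching log10 signals to scores within 1e-07. This named 22514 of 25697 probes for 15225 of 18111 symbols, and 11762 of 11803 probes detected on at least 4 islet arrays. In the score table, 5015 islet values from the row after Pmpcb to the row after Il22ra2 stood 1 row lower and were moved. The series value table held 18105 genes with equal scores and was not run. Of the symbols tested 7101 were current in RefSeq GRCm38.p6, 1439 were synonyms and 364 were not found; they are printed as deposited. Per tissue, limma's neqc corrected background, added an offset of 16, quantile normalized and took log2. The probe brightest over all 16 arrays stood for a gene. Islet arrays had 11092 to 11846 detected probes, and 0 array pairs were identical. The number of arrays limits the precision: the median SE was 0.147, and for 95.6% of genes the 95% interval lay within 2-fold.

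FK866 was compared with control by limma (lmFit, eBayes) with the replicate number as a block and Benjamini-Hochberg adjustment over all genes tested. The comparison is defined by pairs: control and FK866 arrays share replicate numbers, and the departures of same-numbered arrays from their group means correlated at 0.528 to 0.927 across genes. Arrays of different numbers correlated at -0.848 to 0.668. All 4 control arrays and 3 of 4 FK866 arrays correlated best with their own number, while FK866 array 3 correlated more with control arrays 4 (0.668) and 1 (0.572) than with control array 3 (0.528). The difference from hepatocytes is the interaction of tissue and treatment with a block per tissue and number. For a gene that no array of a group detected, the fold is a bound: the other group's mean over the mean of, on each array, its own value or the lowest detected value, whichever is higher. Summed marker signals are linear sums of normalized values over all markers of a list on the array, undetected ones included. Fits were tested on simulated data.

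Genes were named by a rule: those past the threshold, the 12 increases and 12 decreases of smallest p with 1 sign in all pairs (uncharacterized models left out), up to 4 of smallest p in each of 23 pathway and 11 marker lists, the 8 of widest range between pairs, a fixed set (NAD, hormone and stress genes) and those differing from hepatocytes. A few genes that the rule names are not reported here. Members and lists were chosen with earlier results of these data known. Promoters were searched on both strands for 8 motifs: TGACGTCA, TATAAA, TGATGNAA (ATF4, in 3.97% of promoters), CACGTG (E-box, 7.15%) and the heat shock (0.603%), PPAR (0.0396%), endoplasmic reticulum stress (0.119%) and interferon (3.44%) elements. Alternatives were the fit without the block, trended and robust variances, array weights, other filters, an offset of 50, signals floored at 1, the deposited scores, the mean of probes, leaving out each pair and, added after the data were seen, pairs 1 and 4 only. R 4.3.3, limma 3.58.1, Python 3.11.15, numpy 2.4.6, pandas 2.3.3 and matplotlib 3.10.9 were used.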

Additional observations from a re-analysis of the deposited data

Results flagged for a closer look

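For each of 99 named genes, the highest or lowest of the 4 arrays of a group was singled out when its gap to the nearest other array took up more of the range of the group than Dixon's 95% critical value allows. This held for 28 of 198 groups, where chance gives about 1 in 20 for independent groups. These genes were named in part from the same values, and all groups share the same 8 arrays. The count is therefore no test against that rate. Of the 28 readings 26 were on arrays numbered 2, with 18 on FK866 array 2 and 8 on control array 2. The values are normalized log2 signals.

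FK866 array 2 was high for the called genes Cdo1 (6.516, the others 5.511 to 5.636) and C8b (8.137, the others 7.466 to 7.554). It was also high for Naprt1 (8.726), Pmvk (8.786) and Ccnd1 (13.42). Among islet hormones it was low for Gcg (14.27, the others 15.7 to 15.72) and Sst (14.58). Stress and folding genes were low there too, with Hspa8 at 11.77, Edem1 at 6.444, Gdf15 at 7.991, Phgdh at 6.66 and Trp53inp1 at 10.14. The other low readings on that array were Pdk4 at 6.041, Ctsa at 6.812, Psmb6 at 12.73, Atp5o at 7.475, Cyp51 at 7.615 and Rbbp7 at 8.406.

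Control array 2 was high for Parp1 (11.24), Dbp (12.84) and Ccnd1 (14.18). It was low for Sirt1 (6.698, the others 8.793 to 9.12), Gdf15 (5.266), Trp53inp1 (8.459), Sqstm1 (11.9) and Psmb6 (12.11). Gdf15, Trp53inp1, Psmb6 and Ccnd1 stood apart on both arrays numbered 2, each in the same direction. Control array 1 was high for Nmnat2 (6.048) and Dusp1 (9.761).

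The change with FK866 differed between islets and hepatocytes for Areg by 1.76, for C8b by -1.14 and for Cdo1 by -1.342 log2, islets minus hepatocytes, by the interaction term in limma.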

How the results depend on the processing

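The count of 4 called genes depended on the pairing: without the replicate block limma called 0 (smallest adjusted p = 0.97, 121 genes at an unadjusted p under 0.05). It called 0 with signals floored at 1 (smallest 0.0633, 976 unadjusted), 0 on the deposited scores (smallest 0.343, 665 unadjusted) and 0 to 0 without any 1 replicate. Without a detection filter it called 1, Areg, and with pairs 1 and 4 only 1, 1810049H19Rik (1.98, adjusted p = 0.0382), named after its value was seen. It called 21 with trended and robust variances (7 higher, 14 lower), 96 with array weights (27 and 69), 19 among genes detected on all 8 arrays (4 and 15) and 18 with an offset of 50 (5 and 13), and 15 genes passed in each of these, Areg, Col16a1 and C8b among them. The mean of probes gave the same 4. For the difference from hepatocytes (3 genes), the count was 0 without the replicate block (82 unadjusted), 11 with trended and robust variances, 2 among genes detected on all 8 arrays (Areg and C8b), 5 without a detection filter and 0 to 2 without 1 replicate. Lin7b (-0.92, adjusted p = 0.0496) and Xrcc3 (-1.08, adjusted p = 0.0368, named after its value was seen) were the 2 added without a detection filter. The 4 called islet changes kept their sign in each of the 14 alternatives that gave a value, and Cdo1 had none among genes detected on all 8 arrays. The causes of these shifts were not tested.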

Other observations

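A few gene groups not described above held no called gene. Of 26 genes of autophagy and the lysosome 18 were higher and 8 lower (median 0.0799, and 0.0577 to 0.121 with 1 pair left out). At an unadjusted p under 0.05 in limma 3 of them were higher, against 4.67% of all genes. Of 13 targets of hypoxia-inducible factor 7 were higher and 6 lower (median 0.0193, but -0.0631 without pair 2), and of 11 cytokines and NF-kB targets 6 were higher and 5 lower (median 0.0157, but -0.0811 without pair 2). The median over all genes was -0.00338.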
